A study of Mus musculus with 32 samples.

Results

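Glycine receptor subunits, the scaffold protein gephyrin and glycine transporter 1 were examined by every probe that carries the symbol Glrb, Glra1, Glra2, Glra3, Gphn or Slc6a9. These are 6 of the 18138 gene symbols on the array, and 9 of its 25697 probes. FCtx of female F1 mice of the C57BL/6J and FVB/NJ strains was hybridized to Illumina MouseRef-8 v2.0 chips of 8 arrays, 1 mouse per array. The 20 ethanol-treated mice could drink a 20% ethanol solution beside water in sessions of 3 hours in the dark cycle over 20 days. The 12 control mice were untreated. By the Methods, brains were taken 20 hours after the last session. The labels write the cross in 1 direction and the Methods name reciprocal crosses, so the parent of each strain is not settled for a mouse. Chips 1 and 2 held 8 ethanol-treated mice each, chip 4 held 8 controls, and chip 3 held 4 of each group, where the arrays A, C, E and G (odd positions) carried the ethanol-treated mice and B, D, F and H (even positions) the controls.

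The glycine receptor is a chloride channel of alpha and beta subunits that inhibits neurons when it opens, and it is best known from the spinal cord and brainstem. The beta subunit binds gephyrin, which forms the lattice that holds glycine receptors and many GABA-A receptors at inhibitory synapses and also makes the molybdenum cofactor. Glycine transporter 1 is found in glia and some neurons, clears glycine from the synaptic space and sets the glycine available to NMDA receptors.

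Between 10644 and 11544 probes per array were detected in ethanol-treated mice (detection p-value below 0.01) and between 9480 and 11413 in controls, with the lowest number on the array of control mouse 66 on chip 4. The median signal of an array before normalization was 146 to 168 on chip 4. It was 166 to 188 on chip 3 and 172 to 203 on chips 1 and 2. Of 8 lists of cell type and region markers, the mean of the tested neuron probes was 11.94 to 12.24 in ethanol-treated mice and 11.98 to 12.32 in controls (log2 scale). The tested probes of the other lists averaged 11.77 and 11.72 for interneurons in ethanol-treated mice and controls, 10.51 and 10.42 for astrocytes, 8.38 and 8.44 for microglia, and 9.86 and 9.84 for endothelium and blood. Single markers differed beneath these means by limma, with Slc17a7 of excitatory neurons at -0.25 (adjusted p = 0.00457), the astrocyte water channel Aqp4 at 0.57 (adjusted p = 0.00079) and both probes of Gad1, which makes GABA, at 0.27 and 0.30 (adjusted p = 0.0151 and 0.0136). In each of the 8 lists, some tested probes were higher and others lower. Camk2a of neurons gave 0.19 (ILMN_2677393, adjusted p = 0.0129) and -0.09 (ILMN_2596479, adjusted p = 0.336). The interneuron genes Sst, Pvalb, Vip and Npy stood at -0.01, -0.07, -0.13 and -0.08, none at an FDR below 10%. Of the tested probes, 3 were higher and 3 lower for neurons, 2 and 4 for interneurons, and 5 and 3 for astrocytes. The numbers were 2 and 7 for microglia and 2 and 3 for endothelium and blood. At an FDR below 10%, which 25.5% of all tested probes passed, 3 astrocyte genes were higher and 0 lower. At that FDR, 1 microglia gene was lower and 0 higher, and 2 genes of endothelium and blood were higher and 0 lower. Of the neuron genes, Snap25, Nefl and Neurod6 were not detected by their probe on any array. In all tests below, values are variance-stabilized and quantile-normalized on a log2 scale, and the tests cover the 10187 probes detected on at least 24 of the 32 arrays.

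Glrb encodes the only beta subunit and was read by 1 of its 2 probes. The probe with signal, ILMN_1232399, and the first 30 bases of the silent one, ILMN_2685831, are shown because the result for Glrb rests on the former alone. No probe of another gene shares a run of 20 bases with either.
Glrb ILMN_1232399: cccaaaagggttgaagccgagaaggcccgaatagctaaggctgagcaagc
Glrb ILMN_2685831, first 30 bases: ggttggtatggagagcattaagcataagcc

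Glrb lies at chr3:80843598-80913660 (RefSeq, GRCm38.p6). ILMN_1232399 was detected on 32 of 32 arrays, with a signal of 450 to 784 in ethanol-treated mice (median 533) and 193 to 648 in controls (median 353). ILMN_2685831 was detected on 0 of 32 arrays, with 126 to 192 over all mice (median 163), so it gives no difference between the groups. The deposited table places ILMN_1232399 at base 1206 and ILMN_2685831 at base 2406 of the same Glrb transcript. Genome coordinates of the probes are not given here, because those in the table name no build and place 2 overlapping Gphn probes 182171 bases apart.

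**Figure D1:**
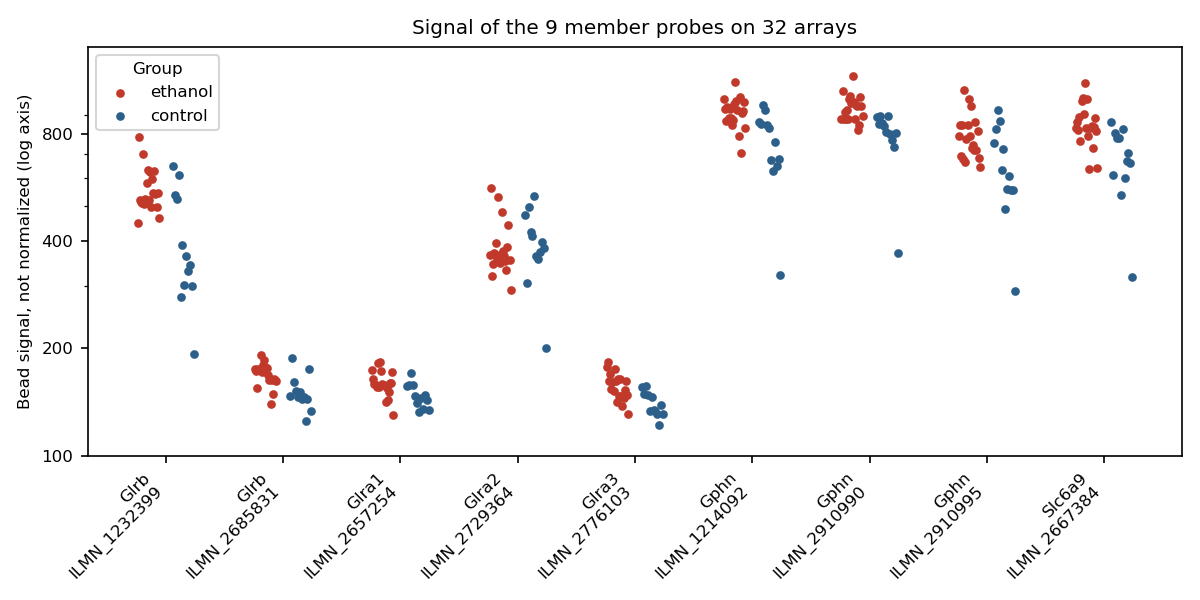
Signal of each member probe on each array before normalization (log axis), with 1 point per mouse in accession order within the 20 ethanol-treated mice (red) and 12 controls (blue). The second Glrb probe, Glra1 and Glra3 stay between 122 and 192 on all arrays, and levels are not comparable between probes. The lowest control point of each detected probe is mouse 66.

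Glrb was the only member that passed an FDR of 1% over all arrays. Its normalized value was 8.66 to 9.38 in the ethanol-treated mice (median 8.93) and 8.07 to 9.18 in controls (median 8.56). The control median lay below all 20 ethanol-treated mice, but the groups overlapped, with 8 controls below every ethanol-treated mouse and the other 4 among them. The means were 8.97 ± 0.19 (SD, n = 20) and 8.60 ± 0.36 (SD, n = 12), a log2 difference of 0.38 (standard error 0.087) or 1.30-fold, with adjusted p = 0.00275 by limma. With arrays scaled to a common median instead of quantile-normalized, the difference was 0.43, with adjusted p = 0.0123. In all, 1 of 6 tested member probes passed an FDR of 1%, where 8.21% of all tested probes did, and 2 of 6 passed an FDR of 10%, where 25.5% did. Of the probes at an FDR below 10%, 47% were higher in ethanol-treated mice, and 86.7% with median scaling, which moved the median difference of all probes from -0.0038 to 0.053. In tissue RNA such as this, fewer cells of a type and less RNA per cell cannot be told apart.

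The 8 controls below every ethanol-treated mouse were the 8 controls of chip 4. Their Glrb values were 8.07 to 8.64 (median 8.41, mean 8.39 ± 0.21 SD, n = 8). The 4 controls of chip 3, mice 52, 54, 55 and 56, had 9.18, 8.98, 8.89 and 9.04, with a mean of 9.02 ± 0.12 (SD, n = 4). The controls thus fell into separate sets by chip, and those of chip 3 lay within the range of the ethanol-treated mice. The ethanol-treated mice of chip 3, mice 46, 47, 49 and 50, had 8.98, 8.72, 8.95 and 8.91 (mean 8.89 ± 0.11 SD, n = 4). Chip 1 averaged 8.96 ± 0.22 (SD, n = 8) and chip 2 averaged 9.03 ± 0.18 (SD, n = 8). In the order of the means, chip 4 controls stood lowest and apart, and the ethanol-treated mice of chip 3 and chip 1, the controls of chip 3 and the ethanol-treated mice of chip 2 followed, each within 1 SD of the next.

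**Figure D2:**
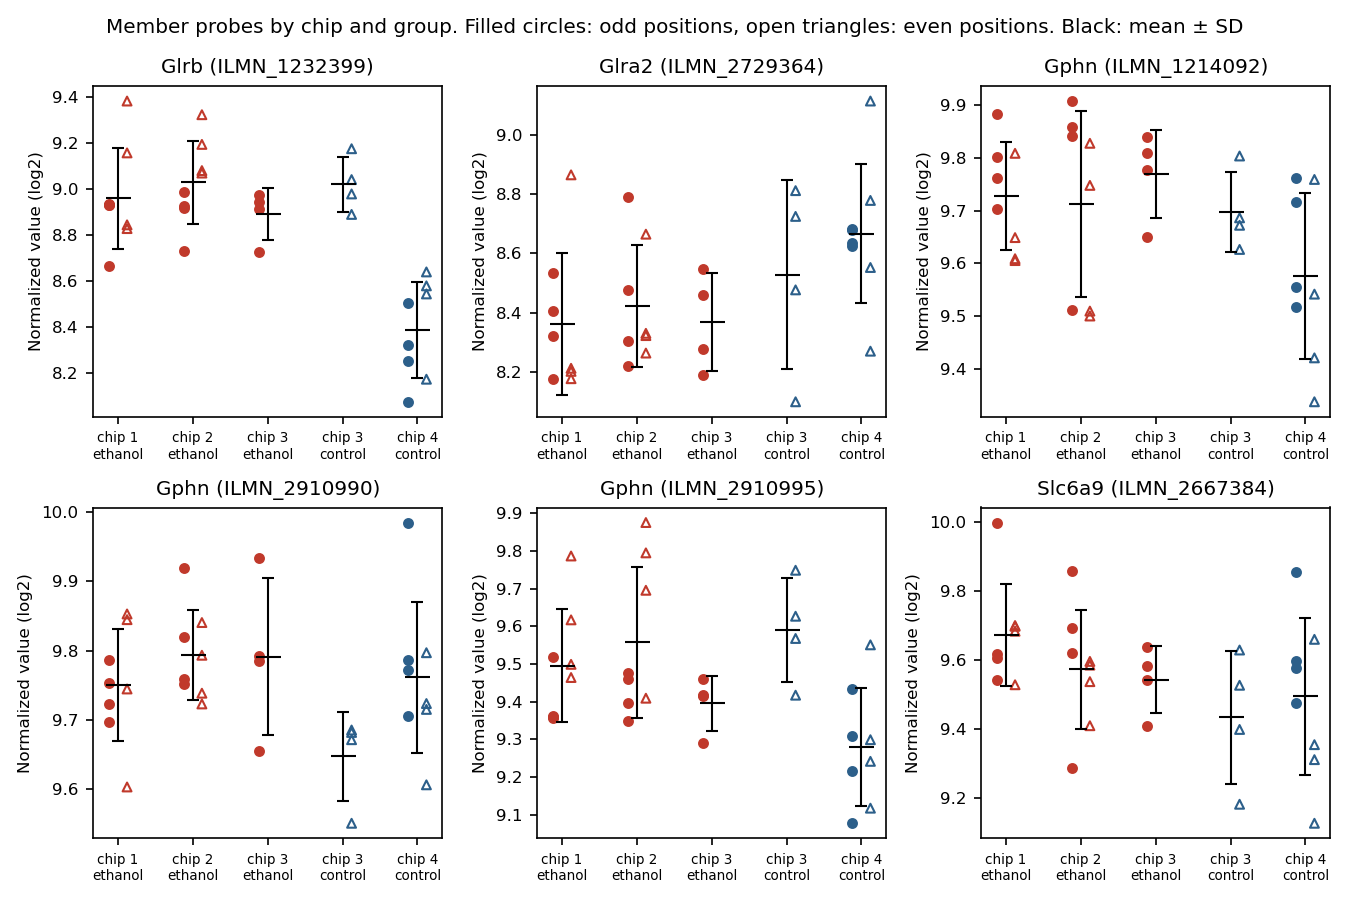
Normalized value (log2) of the 6 tested member probes, 1 point per mouse, by chip and group, with filled circles at odd and open triangles at even positions and the mean ± SD in black (n = 8 on chips 1, 2 and 4, n = 4 per group on chip 3). For Glrb, the chip 4 controls (8.07 to 8.64) lie below all other mice, while the chip 3 controls (8.89 to 9.18) lie among the ethanol-treated mice.

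On chip 3, the one chip that held both groups, Glrb differed by -0.13 between ethanol-treated mice and controls (95% confidence interval -0.30 to 0.03, adjusted p = 0.307 by limma). An exact two-sided permutation test over the 70 regroupings of its 8 arrays gave p = 0.171, where 0.0286 is the smallest p it allows. None of the 6 tested member probes passed an FDR of 10% there by limma (0 of 6, against 16.1% of all tested probes), 1 had an unadjusted p below 0.05, and 0 had an exact p below 0.05. When changes of 0.3 on the log2 scale were simulated in 200 probes for these 8 arrays, an FDR of 10% recovered 0 of them. The simulated spread was that within chip and group over all chips. For Glrb it was 0.188, against SDs of 0.11 and 0.12 in the ethanol-treated mice and controls of chip 3. The simulation therefore cannot decide what size of change these arrays could show. On that chip, position and group cannot be told apart.

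Between chips, the Glrb difference was larger than over all arrays. Chips 1 and 2 lay 0.61 above chip 4 (standard error 0.080, 1.52-fold, adjusted p = 4.57e-06 by limma), and there chip and group cannot be told apart. Glrb was the 1 of 6 member probes at an FDR below 1% (background 11.7%), and 4 of 6 passed an FDR of 10% (background 31.9%). The chip 3 contrast minus the between-chip contrast was -0.74 for Glrb (95% confidence interval -1.03 to -0.45, adjusted p = 0.00177 by limma). This difference of contrasts passed an FDR of 1% for 1 of 6 member probes (background 2.61%) and an FDR of 10% for 2 of 6 (background 14.5%), the second being Gphn ILMN_2910995.

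Arrays of a single group were then compared between chips at matched positions, a comparison chosen after the Glrb values had been seen. Among controls at even positions, the 4 of chip 3 lay 0.54 above the 4 of chip 4 (standard error 0.10, adjusted p = 0.00732 by limma). In that comparison 1 of 6 member probes passed an FDR of 1% (background 0.864%) and 2 of 6 an FDR of 10% (background 10.6%). Among ethanol-treated mice at odd positions, the 4 of chip 3 differed from the 8 of chips 1 and 2 by 0.01 (95% confidence interval -0.14 to 0.17, adjusted p = 0.980). There 0 of 6 member probes passed an FDR of 10% by limma (background 0.177%) and 0 had an unadjusted p below 0.05.

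Position also moved with Glrb. On chips 1, 2 and 4, each of which held a single group, even positions lay 0.22 above odd ones (standard error 0.064, adjusted p = 0.0238 by limma), with means of 9.05 and 8.87 on chip 1, 9.17 and 8.89 on chip 2, and 8.48 and 8.29 on chip 4. Of the 6 member probes, 2 passed an FDR of 10% in this comparison (background 20.2%), Glrb and Gphn ILMN_2910995. With chip and position both in the fit over all arrays, Glrb differed by 0.09 between ethanol-treated mice and controls (adjusted p = 0.867). The part of chip and position in the Glrb difference was not tested beyond these comparisons.

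**Figure D3:**
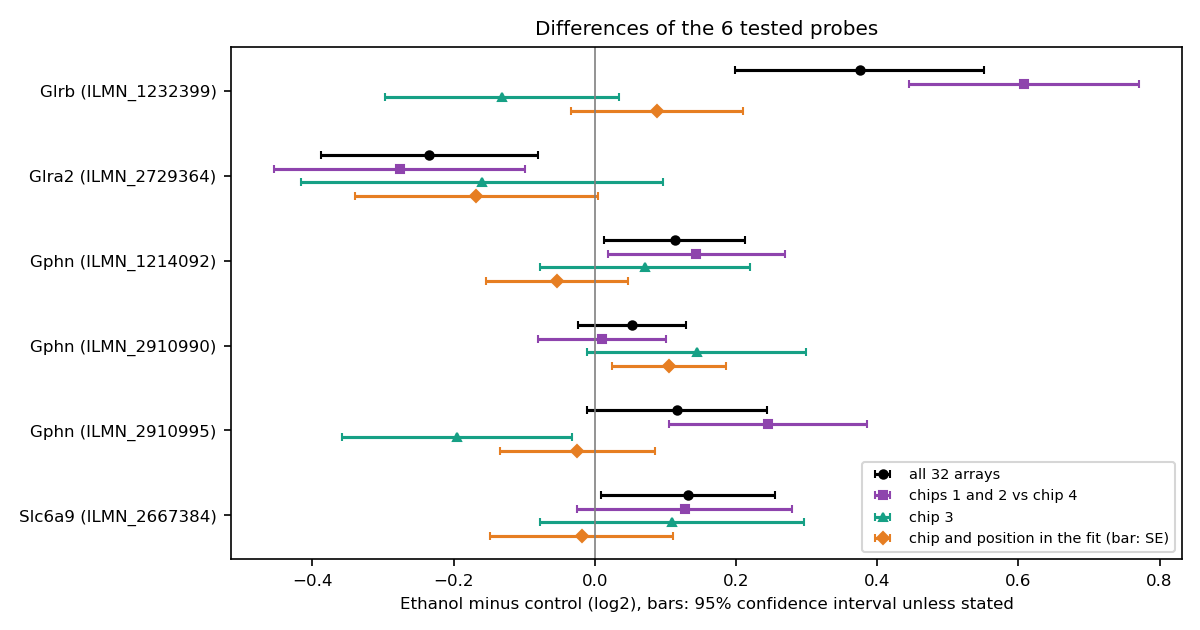
Log2 difference between ethanol-treated mice and controls for the 6 tested probes over all 32 arrays, between chips 1 and 2 and chip 4, and on chip 3 (points with 95% confidence intervals), and over all arrays with chip and position in the fit (diamonds with standard errors). Glrb stands at 0.38, 0.61, -0.13 and 0.09 in these 4 comparisons, while Glra2 lies below 0 in all of them.

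The alpha subunits carry the glycine binding site together with the beta subunit. Glra1, the main adult alpha subunit of spinal cord and brainstem, lies at chr11:55514239-55608198. Its probe ILMN_2657254 was detected on 0 of 32 arrays, with a signal of 130 to 184 (median 157). Glra3 lies at chr8:55940418-56130070, and its probe ILMN_2776103 was also detected on 0 of 32 arrays, with 122 to 183 (median 149). The signals of both thus remained at the level of the negative control beads in ethanol-treated mice and controls alike, and no difference was computed. The remaining alpha gene of the mouse, Glra4, was detected on 0 of 32 arrays as well.

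Glra2, the alpha subunit known from the developing brain and from extrasynaptic receptors, was the one alpha subunit detected, on 32 of 32 arrays. The gene lies at chrX:165129017-165327867. The first 30 bases of its probe are shown as the sequence behind that signal, and no probe of another gene shares a run of 20 bases with it.
Glra2 ILMN_2729364, first 30 bases: ttgctgtcgctaagccacagtatttatgga

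The signal of Glra2 was 292 to 565 in ethanol-treated mice (median 365) and 200.3 to 534 in controls (median 389). After normalization it was 8.18 to 8.87 in ethanol-treated mice (median 8.32) and 8.10 to 9.11 in controls (median 8.66). Only 3 of 20 ethanol-treated mice lay above the control median, but 1 control (mouse 54 of chip 3) lay below and 1 (mouse 63 of chip 4) above all ethanol-treated mice. The means of 8.39 ± 0.20 (SD, n = 20) and 8.62 ± 0.26 (SD, n = 12) gave a log2 difference of -0.23 (standard error 0.076, adjusted p = 0.0273 by limma), which passed an FDR of 10% and not of 1%. Without each mouse in turn the difference ranged from -0.28 to -0.19. The adjusted p by limma ranged from 0.00563, without control mouse 54, to 0.0665, and 1 of these 32 fits passed an FDR of 1%. With median scaling the difference was -0.17 (adjusted p = 0.263). With chip in the fit Glra2 did not pass an FDR of 10%, at -0.16 as a fixed block (adjusted p = 0.593), -0.22 as a random block (adjusted p = 0.174) and -0.17 with position added to the fixed block (adjusted p = 0.808).

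Glra2 was lower in the mean of the ethanol-treated mice on chip 3 and between chips. On chip 3, the ethanol-treated mice 46, 47, 49 and 50 had 8.46, 8.55, 8.28 and 8.19 and the controls 52, 54, 55 and 56 had 8.72, 8.10, 8.81 and 8.48. The groups overlapped there, with a difference of -0.16 (95% confidence interval -0.42 to 0.10, adjusted p = 0.437 by limma, exact permutation p = 0.400). Chips 1 and 2 against chip 4 gave -0.28 (standard error 0.087, adjusted p = 0.0211). The difference between these contrasts was 0.12 (95% confidence interval -0.23 to 0.47, adjusted p = 0.721), and that between even and odd positions was -0.01 (adjusted p = 0.964).

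Glra2 varied more between mice than most probes. Its SD within the sets of mice that share chip and group was 0.234, against a median of 0.128 over tested probes. Over the 32 mice, after each probe was centred within these sets, the 5 genes most like Glra2 were Tspan2 (r = 0.860), Cldn11 (r = 0.833), Prr18 (r = 0.791), Fa2h (r = 0.785) and Mag (r = 0.780). The 99th percentile over all tested probes was 0.545. Cldn11 and Mag encode myelin proteins and Fa2h makes hydroxylated myelin lipids. Each mouse had its own array but shared its chip with others, so these values are given as a description.

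**Figure D4:**
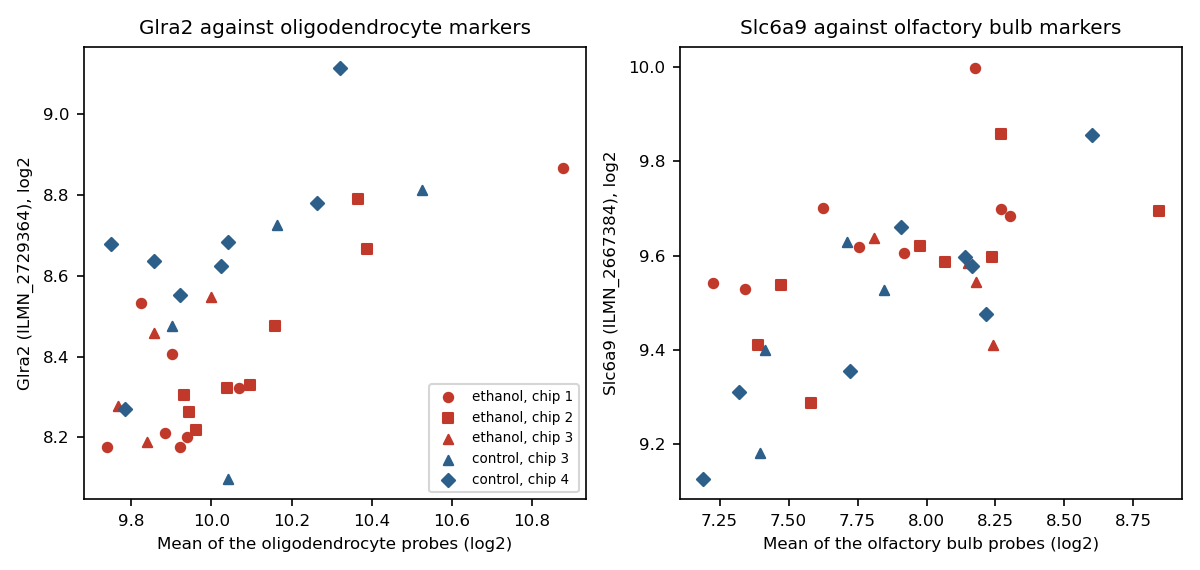
Left, Glra2 against the mean of 13 oligodendrocyte probes, and right, Slc6a9 against the mean of the 2 olfactory bulb probes, both on the log2 scale with 1 point per mouse, colour for group and symbol for chip. Mice high in the oligodendrocyte mean (up to 10.88) were high in Glra2, and mice low in the olfactory bulb mean were mostly low in Slc6a9.

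The 6 member probes were therefore set beside 8 lists of markers within each group, 96 relations in all, chosen after these genes had been seen. Of these, 22 had an unadjusted permutation p below 0.05 and 3 an adjusted p below 0.05. No relation of Glrb was among the 3. Glrb gave r = 0.470 with the neuron list in ethanol-treated mice and 0.722 in controls (adjusted p = 0.2 and 0.14 by permutation). With astrocytes it gave -0.567 and -0.444 (adjusted p = 0.14 and 0.34), and with microglia -0.455 and -0.527 (adjusted p = 0.2 and 0.28). The part of cell types in the Glrb difference was not tested. Glra2 correlated with the 13 oligodendrocyte probes in the 20 ethanol-treated mice (r = 0.796, p = 0.00014, rho = 0.599, p = 0.0066, adjusted p = 0.0067 by permutation). Without the 2 mice farthest from the median of the list, r was 0.614. Cldn11 and Mag are among these 13 probes and among the 5 genes most like Glra2, so this relation is not independent of that likeness. In the 12 controls r was 0.567 (adjusted p = 0.21 by permutation, 0.321 without 2 mice), and within chips and groups over 32 mice it was 0.773. With 4 striatum probes, of Drd1a, Ppp1r1b and Rgs9, r was 0.774 in ethanol-treated mice (p = 4e-05, rho = 0.693, p = 0.001, adjusted p = 0.0038 by permutation, 0.620 without 2 mice). It was 0.596 in controls (adjusted p = 0.2 by permutation, 0.642 without 2 mice).

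The oligodendrocyte mean was 9.74 to 10.88 in ethanol-treated mice and 9.75 to 10.53 in controls. Of its 13 probes, 9 were lower in ethanol-treated mice, with a median difference of -0.12 over all arrays and -0.37 on chip 3. Of its 7 genes tested, Mbp had 1 probe of 3 that was higher at an FDR below 1% (0.61, adjusted p = 0.00751 by limma), and Cldn11 was lower at an FDR below 10% (-0.21, adjusted p = 0.0522 by limma). The striatum mean was 8.30 to 9.21 in ethanol-treated mice and 8.25 to 8.76 in controls, with a median difference of 0.01 over all arrays and -0.18 on chip 3, where 1 of 2 tested Ppp1r1b probes differed by -0.24 (adjusted p = 0.0404 by limma). Adora2a was detected on 0 of 32 arrays. Ethanol-treated mice 13, 28 and 41 stood highest in their group in both means. They had 10.88, 10.36 and 10.39 for oligodendrocytes and 9.21, 8.64 and 8.62 for striatum. The relations of Glra2 with these lists are therefore not independent. The part of either tissue component in the Glra2 difference was not tested.

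Gphn lies at chr12:78217325-78684772 and was read by 3 probes, each detected on 32 of 32 arrays. The last 30 bases of ILMN_2910990 and the first 30 bases of ILMN_1214092 are shown because these probes overlap. The capitals mark the 25 bases they share.
Gphn ILMN_2910990, last 30 bases: tagcaGCCTCAGGCACAGTACTGGCAGGCA
Gphn ILMN_1214092, first 30 bases: GCCTCAGGCACAGTACTGGCAGGCAgtaac
Gphn ILMN_2910995, first 30 bases: aggctgtctgcttctttatactagtgtagg

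No Gphn probe passed an FDR of 10% over all arrays by limma, and 1 of 3 had an unadjusted p below 0.05. ILMN_1214092 was 9.50 to 9.91 in ethanol-treated mice (median 9.77) and 9.34 to 9.80 in controls (median 9.65), and the groups overlapped. Its difference was 0.11 (standard error 0.049, p = 0.0268, adjusted p = 0.104 by limma). ILMN_2910990 was 9.60 to 9.93 (median 9.77) and 9.55 to 9.99 (median 9.71), with a difference of 0.05 (95% confidence interval -0.02 to 0.13, adjusted p = 0.354). ILMN_2910995 was 9.29 to 9.87 (median 9.46) and 9.08 to 9.75 (median 9.36), with a difference of 0.12 (95% confidence interval -0.01 to 0.24, adjusted p = 0.199).

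The third Gphn probe differed between chips in the way Glrb did. Chips 1 and 2 lay 0.25 above chip 4 for ILMN_2910995 (standard error 0.069, adjusted p = 0.0101 by limma). On chip 3, the ethanol-treated mice 46, 47, 49 and 50 had 9.42, 9.46, 9.29 and 9.42 and the controls 52, 54, 55 and 56 had 9.42, 9.63, 9.75 and 9.57. The ethanol-treated mice differed from the controls there by -0.19 (95% confidence interval -0.36 to -0.03, adjusted p = 0.119 by limma, exact permutation p = 0.0571), with overlap of the lowest control. The difference of contrasts was -0.44 (95% confidence interval -0.69 to -0.19, adjusted p = 0.0226). Controls at even positions were 0.29 higher on chip 3 than on chip 4 (adjusted p = 0.0887), and even positions were 0.17 above odd ones on chips 1, 2 and 4 (adjusted p = 0.0483).

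The overlapping Gphn probes behaved otherwise, and they were also unlike each other. Despite the 25 shared bases, they gave r = 0.224 in ethanol-treated mice and r = -0.087 in controls (adjusted p = 0.69 and 0.93 by permutation). Controls at even positions differed between chips 3 and 4 by 0.18 for ILMN_1214092 and -0.06 for ILMN_2910990 (adjusted p = 0.249 and 0.677 by limma). ILMN_1214092 gave 0.14 between chips (standard error 0.061, adjusted p = 0.0865 by limma) and 0.07 on chip 3 (95% confidence interval -0.08 to 0.22, adjusted p = 0.565). ILMN_2910990 gave 0.01 between chips (adjusted p = 0.893) and 0.14 on chip 3 (95% confidence interval -0.01 to 0.30, adjusted p = 0.22). For neither did the difference of contrasts pass an FDR of 10% (adjusted p = 0.728 and 0.326). Even positions differed from odd ones on chips 1, 2 and 4 by -0.13 for ILMN_1214092 and -0.04 for ILMN_2910990 (adjusted p = 0.121 and 0.566 by limma).

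The 5 genes most like ILMN_2910990, the Gphn probe of highest mean, were Zfc3h1 (r = 0.706), Sec14l1 (r = 0.652), Apeh (r = 0.625), Hat1 (r = 0.622) and Ints4 (r = 0.602), over 32 mice centred within chip and group. For Glrb they were Tollip (r = 0.772), Tcp1 (r = 0.724), Tmem49 (r = 0.724), Sh3gl2 (r = 0.718) and Gemin6 (r = 0.714). Sh3gl2 encodes endophilin A1 of synaptic vesicle recycling, and Tcp1 a subunit of the TRiC chaperonin. The 99th percentile over tested probes was 0.473 for Gphn and 0.573 for Glrb, so the likeness of these genes describes the upper end of a wide distribution.

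Whether the members varied together was tested for the 15 pairs of tested probes in each group, 30 relations in all. None had an adjusted permutation p below 0.05 (0 of 30), and 3 had an unadjusted p below 0.05. The highest correlation was that of Gphn ILMN_1214092 with Gphn ILMN_2910995 in the 12 controls (r = 0.789, p = 0.0026, rho = 0.790, p = 0.0037, adjusted p = 0.077 by permutation). It was 0.766 without 2 mice and 0.783 within chips, while the same pair gave r = -0.244 in the 20 ethanol-treated mice (p = 0.3, adjusted p = 0.65 by permutation). The difference between these correlations was not tested. Glrb and Gphn ILMN_2910995 gave r = 0.521 in ethanol-treated mice (p = 0.018, rho = 0.290, p = 0.21, adjusted p = 0.18 by permutation, 0.501 without 2 mice). In controls r was 0.729 (p = 0.0083, rho = 0.685, p = 0.017, adjusted p = 0.12 by permutation, 0.876 without 2 mice). Glrb fell into separate sets by chip there, and r within chips was 0.286.

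Slc6a9, which encodes glycine transporter 1, lies at chr4:117835258-117869305. Its probe ILMN_2667384 was detected on 32 of 32 arrays, with 9.29 to 9.999 in ethanol-treated mice (median 9.60) and 9.13 to 9.86 in controls (median 9.50). Of the 20 ethanol-treated mice, 17 lay above the control median and 2 above every control. The means of 9.61 ± 0.15 (SD, n = 20) and 9.47 ± 0.21 (SD, n = 12) gave a difference of 0.13 (standard error 0.061, p = 0.0369, adjusted p = 0.129 by limma), which did not pass an FDR of 10%. On chip 3 it was 0.11 (95% confidence interval -0.08 to 0.30, adjusted p = 0.47) and between chips 0.13 (adjusted p = 0.221), and the difference of contrasts was -0.02 (95% confidence interval -0.30 to 0.26, adjusted p = 0.953). Even positions differed from odd ones by -0.13 on chips 1, 2 and 4 (adjusted p = 0.201 by limma). On chip 3 the ethanol-treated mice held the odd positions.

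The genes most like Slc6a9 within chips and groups were Trh (r = 0.775), Csdc2 (r = 0.733), Calb2 (r = 0.731), Th (r = 0.727) and Gjd2 (r = 0.726), over 32 mice with a 99th percentile of 0.556. Th makes the precursor of dopamine and Calb2 encodes calretinin, and both are abundant in cells of the olfactory bulb, which the dissection of the study left out. With the 2 tested olfactory bulb probes, of Doc2g and Th, Slc6a9 correlated in the 12 controls (r = 0.852, p = 0.00046, rho = 0.755, p = 0.0064, adjusted p = 0.015 by permutation, 0.692 without 2 mice). In ethanol-treated mice r was 0.452 (adjusted p = 0.2 by permutation). Th is both one of these 2 probes and among the 5 genes most like Slc6a9.

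The olfactory bulb mean was 7.23 to 8.84 in ethanol-treated mice and 7.19 to 8.60 in controls, and 3 further genes of that list (Eomes, Tbx21 and Synpr) were detected on 8, 1 and 0 of 32 arrays. Doc2g, a bulb marker, differed by 0.29 over all arrays (adjusted p = 0.307 by limma) and by 0.84 on chip 3 (adjusted p = 0.00204). Th, the other tested probe, differed by -0.01 over all arrays (adjusted p = 0.955) and by 0.17 on chip 3 (adjusted p = 0.196). The part of bulb tissue in the Slc6a9 values was not tested.

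Around the members, 37 genes in 5 lists were examined, of which 35 were on the array and 24 were tested with 32 probes. At an FDR below 1% by limma, 2 genes were higher in ethanol-treated mice and 0 lower. At an FDR below 10%, 3 were higher and 3 lower. These 2 and 6 of 24 genes count any gene with a probe that passed, while the shares of 8.21% and 25.5% over the array are of probes. By probe, 2 of the 32 passed an FDR of 1%, near the share of 8.21%. The median difference over the 32 probes was 0.01, against -0.0038 over all tested probes. Of the 32 probes, 16 were higher and 16 lower.

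Among the other glycine transport genes, 3 of 5 were tested. Slc32a1, the vesicular transporter for GABA and glycine, was higher by 0.12 at an FDR below 10% (standard error 0.051, adjusted p = 0.0841 by limma), with 0.28 on chip 3 (adjusted p = 0.0395) and 0.06 between chips (adjusted p = 0.532). It is a marker of inhibitory neurons like Gad1, whose values are given above, and their part in its difference was not tested. Slc7a10, a glial and neuronal carrier of small neutral amino acids, was lower, with -0.15 (standard error 0.050, adjusted p = 0.0334). Slc38a5, a glutamine and glycine carrier, gave -0.08 (adjusted p = 0.375). Slc6a5, the neuronal glycine transporter 2, was detected on 0 of 32 arrays, as was Glra4.

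In the gephyrin scaffold list, 10 of 14 genes were tested. Dynll2, a dynein light chain that binds gephyrin, was higher by 0.33 (standard error 0.090, adjusted p = 0.00926 by limma), with 0.28 on chip 3 (adjusted p = 0.0602) and 0.30 between chips (adjusted p = 0.0368). Its other probe was detected on 0 of 32 arrays. Without control mouse 66 the adjusted p of Dynll2 was 0.0118. Dynll1, its paralogue, was lower, with -0.13 (adjusted p = 0.0149), from 0.04 on chip 3 (adjusted p = 0.75) and -0.19 between chips (adjusted p = 0.00238), and Pfn1, an actin-binding profilin, was lower with 1 of its 2 probes, at -0.14 (adjusted p = 0.0642, with -0.21 on chip 3 and -0.11 between chips). These last 2 genes are named after their values were seen.

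In glycine and serine metabolism, 5 of 9 genes were tested. Phgdh, the first enzyme of serine synthesis, was higher by 0.26 (standard error 0.057, adjusted p = 0.00187 by limma), with 0.13 on chip 3 (adjusted p = 0.285) and 0.32 between chips (adjusted p = 0.00129). Neither Phgdh nor Dynll2 passed an FDR of 1% with chip in the fit as a fixed block (adjusted p = 0.534 and 0.33). None of the 3 tested molybdenum cofactor genes passed an FDR of 10% (0 of 3, with differences of 0.05 and 0.04 for 2 Nfs1 probes, 0.04 for Mocs1 and -0.01 for Mocs2). Of the chloride transporters, Slc12a5 (-0.07) and Slc12a2 (0.04 and -0.01 with its 2 tested probes) did not pass an FDR of 10% either. None of the probes named for these 2 lists had an adjusted p under 0.446 by limma.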

How the data were processed

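Intensities are the mean bead signals per probe and array that the authors deposited without normalization, on a linear scale. Beside them the authors deposited, for each probe, a detection p-value, the bead standard error and the bead number. No background step is given in the sources used here, and the submitters' processing notes name lumi and limma. Following the Methods, signals were variance-stabilized (here by code written for this work from the bead standard errors) and quantile-normalized in R 4.3.3, and groups were compared by limma 3.58.1 with Benjamini-Hochberg adjustment over 10187 probes. Permutation tests used 100000 resamples in Python 3.11.15. Samples were grouped by title, and 0 columns lacked a sample. The members and lists were chosen with earlier results of these data known. Named genes are the members, list genes at an FDR below 1% or otherwise up to 3 per list with the lowest adjusted p, and the 5 genes most like each tested member. A gene that this rule covers is not reported here.

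A simulation over all arrays changed 200 probes by 0.3 on the log2 scale, of which limma recovered 185 at an FDR of 1%, with 3 false calls. The number recovered or falsely called where chips or positions differ was not tested. Each probe was read by 23 to 61 beads per array, and the number of mice limits the precision. Alternatives tried were the plain log2 signal, normexp background correction (offset 16), scaling by the median, all probes or those detected on all arrays, array weights, chip as a fixed or random block, odd or even position, and leaving out mice. Gene positions and names come from RefSeq, GRCm38.p6.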

Additional observations from a re-analysis of the deposited data

Results flagged for a closer look

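The Glrb contrast on chip 3 minus that between chips 1 and 2 and chip 4 was -0.74, as given above, and that of Gphn ILMN_2910995 was -0.44. Both are listed because limma tested the difference itself.

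Over the 6 tested probes and the 5 sets of mice that share chip and group, 2 of the 30 combinations had a mouse far from the others of its set. Control mouse 56 of chip 3 had a Gphn ILMN_2910990 value of 9.55, where the nearest of the other 3 controls had 9.67. Ethanol-treated mouse 11 of chip 1 had a Slc6a9 value of 9.999, where the next of its chip had 9.70. Chance alone would mark about 1 in 20 such combinations.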

How the results depend on the processing

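Over all arrays, 1 member probe (Glrb) passed an FDR of 1%. The count was 0 with median scaling, with chip as a fixed block, with chip as a random block, and with chip and position. Without each mouse in turn it was 1 to 2, the latter without control mouse 54. Glrb passed in all 32 of these fits (0.33 to 0.43), and the adjusted p of Glra2 stayed at or under 0.0665. With chip as a fixed block Glrb was -0.13 and Gphn ILMN_2910995 was -0.19, and as a random block Glrb was 0.26 (adjusted p = 0.112 by limma). With chip and position, Gphn ILMN_1214092 was -0.054, Gphn ILMN_2910995 was -0.025 and Slc6a9 was -0.019. Of the pathway genes, 2 passed, and 1 did with normexp background, median scaling, all probes, array weights, or without control mouse 66, and 0 with chip as a fixed or random block or with chip and position. Over the array, 836 probes passed, 170 with median scaling, 17 with chip as a fixed and 79 as a random block, and 2 with chip and position.

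Between chips, the count of 1 became 2 over probes detected on all arrays, 3 with array weights and 2 without control mouse 66. Over the array 1193 of 10187 probes passed, 1060 of the 8608 detected on all arrays, and 1287 of 10187 with array weights. The number over the array was not counted without control mouse 66. Gphn ILMN_2910990 was -0.0065 with array weights and -0.012 without that mouse. For the difference of contrasts the count became 2 with array weights, while over the array the probes passing rose from 266 to 773. There median scaling moved the median of all probes to -0.12, with Glra2 at -0.013 and Gphn ILMN_2910990 at -0.027, and Slc6a9 was 0.0042 with array weights and 0.0079 without control mouse 66. For position, Glra2 was 0.015 with array weights and 0.031 without that mouse. Median scaling moved the share of higher calls at an FDR of 10% from 48.9% to 30% on chip 3, from 47.4% to 94.9% between chips, from 51% to 4.06% for the difference of contrasts and from 49.3% to 18.1% for position. The count of correlated member pairs rose from 0 to 3 with median scaling. The cause of these changes was not tested. No paired analysis was possible because no mouse number occurs in both groups. Probes at the level of the negative control beads (Glra1, Glra3 and the second Glrb probe) give no comparison.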
